A study of Arabidopsis thaliana with 27 samples.

Results

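Of the 18899 genes measured in Arabidopsis leaves, 12 were higher in every group collected 24 h after wounding and in no group collected at 3 h. The genes were selected on measured values: a gene was taken when its group mean on the deposited log2 scale was at least 1.5 above Control in all 3 of the 24 h groups, less than 0.5 above Control in all 3 of the 3 h groups, and at least 0 in its highest group. These group differences chose the genes, so they are given as a description with no test. The genes are LHY, AT1G01520 (ASG4), BBX32, BAM9, GATA22, AT5G42760, AT2G27420, CYP71B36, RAP2-3, LBD1, GASA5 and AT5G43580 (UPI). Leaving out the limit on level gave 16 genes, and the added genes AtRLP21, ATL64, IPT7 and AT5G53320 were all below a log2 value of 0 in every group. With no limit at 3 h, 323 genes met the other limits.

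The libraries came from leaves of 5-week-old wild type Col-0 plants grown in short days. Control leaves were not wounded (n = 4). Wounded leaves had 4 holes of 1 mm, and each hole received 2 µl of water (W), of oral secretions of Pieris brassicae larvae (Pb OS) or of oral secretions of Spodoptera littoralis larvae (Sl OS). Discs of 1 cm around the wound were taken at 3 h (W, n = 3; Pb OS and Sl OS, n = 4 each) or 24 h (n = 4 each), from plants handled in groups of 2 per treatment. Intact leaves were harvested only alongside the earlier groups, so the 24 h groups had no unwounded leaf of their own time, and the hour of the day of each harvest is not given in the sources used here. The study's methods state that the plants of replicates 1 and 2 shared part of their growth period, as did those of replicates 3 and 4. These are called replicate pairs below. In bulk tissue, fewer cells of a type and less RNA per cell cannot be told apart.

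A library held 22.5 to 31.3 M reads on genes (median 29.3 M reads), and 1 read was worth 0.0289 to 0.0422 counts per M reads (CPM). Leaf tissue was plain in the mesophyll markers, where RBCS1A, the small subunit of Rubisco, ran from 1945 to 15645 CPM over the 27 libraries. The mesophyll markers LHCB1.1, LHCB1.2, RCA and CA1 had medians of 1775 to 7005 CPM, and the epidermis marker PDF1 and the trichome marker GL1 were not among the genes in the table. The deposited values had the same mean in both replicate pairs, to within 3.29e-09 in any gene, when 1 of the 3 W libraries at 3 h was counted with replicates 1 and 2 and the libraries labelled replicate 2 and 3 were counted with replicates 3 and 4. That placement, which rests on the values and not on a label, was used for the pairs throughout. Whole reads were recovered for all 18899 genes, and levels in reads or CPM below carry no batch correction.

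The plant circadian clock is a loop of transcription factors that repress each other at different hours. LHY and CCA1 are Myb-like proteins that accumulate around dawn and repress evening genes such as TOC1, while the PRR proteins and the evening complex of ELF3, ELF4 and LUX repress the morning genes later in the day. The clock gates growth, starch use and parts of the defence against insects, so a level taken at a single hour reflects that hour. Wounded leaves meanwhile switch on protease inhibitors, which hinder digestion in the insect gut, and programmes that close and heal the wound.

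Of the 12 genes, 3 carry the G-box, CACGTG, in the 300 bases before the annotated gene start, and it lies at a like distance in each, so these stretches are shown. They are printed 5′ to 3′ from RefSeq (TAIR10.1), on the strand of the gene, with the motif in capitals. The stretch of LHY is chr1:37872-38021 on the minus strand, that of BAM9 chr5:6225806-6225955 on the plus strand, and that of ASG4 chr1:190312-190341 on the plus strand, where it overlaps the end of the neighbouring gene AT1G01510. GATA22 is shown for its CCA1-binding site (AAAAATCT, here read on the opposite strand), in chr4:13252934-13253083 on the plus strand.
LHY: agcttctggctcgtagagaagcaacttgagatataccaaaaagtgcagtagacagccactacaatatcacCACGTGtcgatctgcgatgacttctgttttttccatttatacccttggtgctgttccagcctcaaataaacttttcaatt
BAM9: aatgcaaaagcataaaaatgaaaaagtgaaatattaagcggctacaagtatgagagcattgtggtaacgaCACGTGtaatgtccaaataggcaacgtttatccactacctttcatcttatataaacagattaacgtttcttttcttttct
ASG4: acgatcgtattcCACGTGgcaatttatgtg
GATA22: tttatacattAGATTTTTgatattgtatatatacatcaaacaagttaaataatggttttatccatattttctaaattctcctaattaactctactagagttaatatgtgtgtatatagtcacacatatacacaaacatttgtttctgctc

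The G-box began 80 bases before the start in LHY and BAM9 and 84 bases before it in ASG4. It stood in the 300 bases before 3 of the 12 genes and in those of 1542 of the 18834 genes that had a nuclear RefSeq locus (8.19%). The evening element, AAAATATCT, was in none of the 12 and in 2.98% of all genes, and the CCA1-binding site was in GATA22 alone and in 8.11% of all genes. A W-box (TTGACC or TTGACT), the site of WRKY factors, was in 5 of the 12 and in 32.0% of all genes. With 1000 bases, the G-box was in 4 of the 12 (16.1% of all genes), the CCA1-binding site in 4 (20.6%) and the evening element in none (7.34%). Both strands were searched, and these matches describe letters only.

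The rise at 24 h was not shared by all replicates. In 7 of the 12 genes it lay wholly or mostly in replicates 1 and 2, and in the other 5 it was present in both pairs. Replicates 1 and 2 alone gave 24 h means at least 1.5 above their own Control, with all 3 treatments, in 11 of the 12 genes, and replicates 3 and 4 did so in 3, which were LBD1, GASA5 and UPI. In replicates 3 and 4 the lowest 24 h difference from Control was at or below 0 in LHY, ASG4, AT2G27420, BBX32, BAM9 and AT5G42760, and in 4 genes it was below 0 with all 3 treatments. All 6 of the 24 h libraries of replicates 1 and 2 exceeded all 7 of the Control and 3 h libraries of that pair in 10 of the 12 genes. For replicates 3 and 4, with 6 against 8 libraries, this held for 4 genes, and over all libraries it held for RAP2-3 and UPI only.

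**Figure D1:**
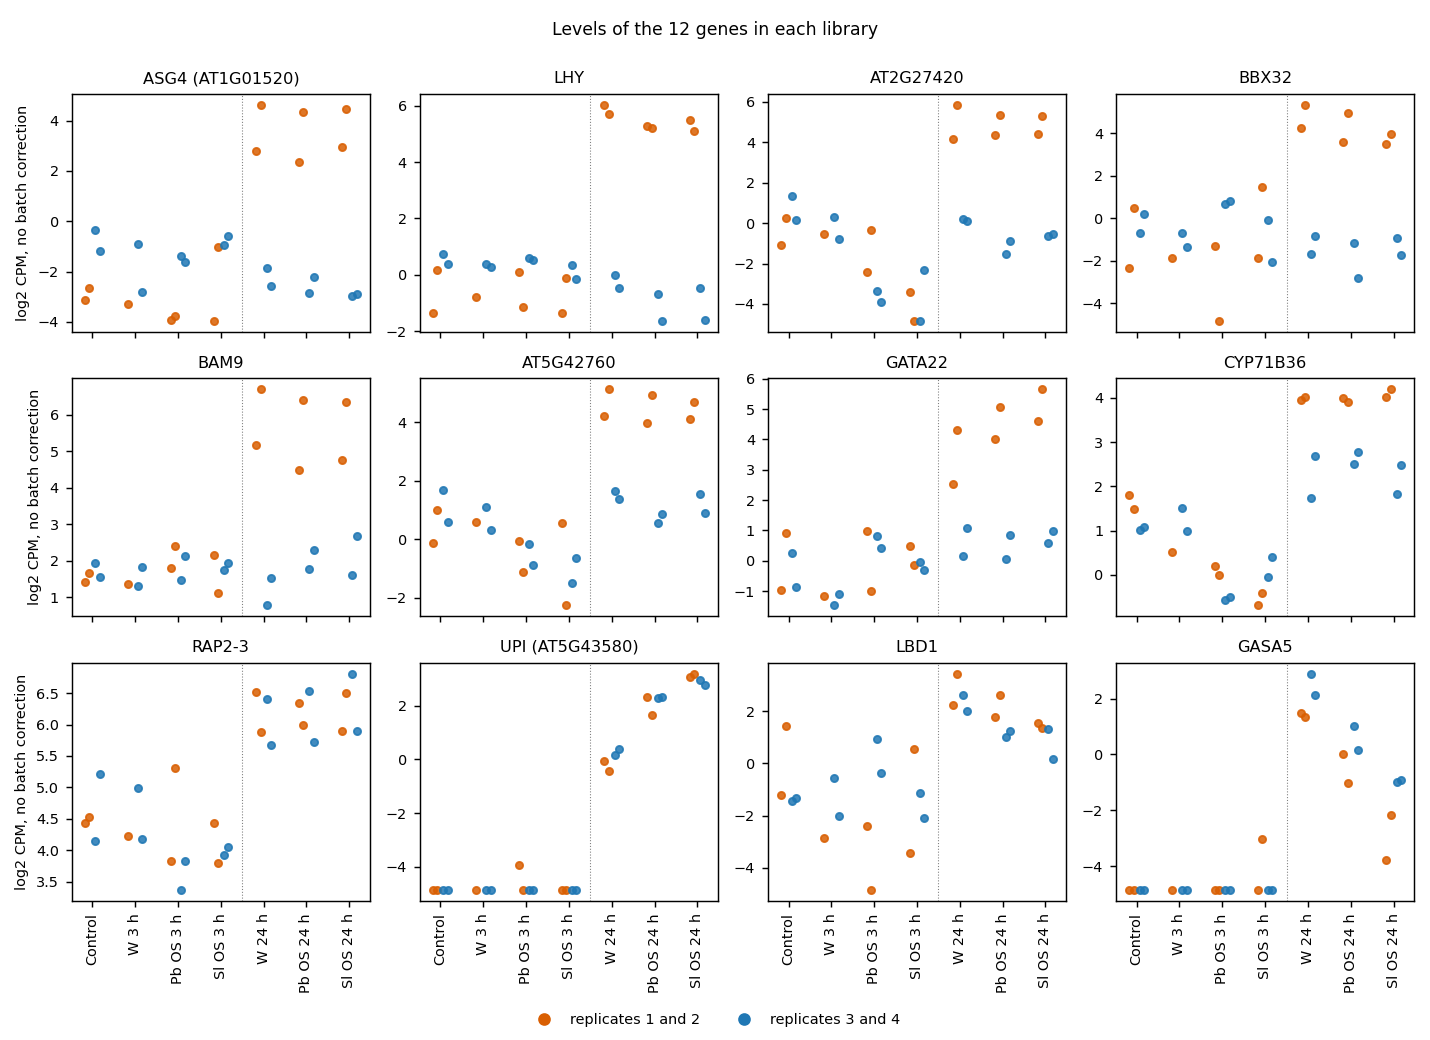
Level of each of the 12 genes in each library, as log2 CPM without batch correction, by group, with replicates 1 and 2 in orange and replicates 3 and 4 in blue; each point is a library and the dotted line parts the 3 h from the 24 h groups. In ASG4, LHY, AT2G27420 and BBX32 only the orange points are high at 24 h, while in RAP2-3, UPI, LBD1 and GASA5 both colours are.

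A test of this difference was added after the data had been seen. A limma fit with group means, the replicate pair and the pair at 24 h asked whether replicates 1 and 2 stood further above replicates 3 and 4 at 24 h than in the Control and 3 h libraries. Calls needed a log2 difference over 1 in size together with an adjusted p below 0.05. Of all genes, 8.91% were called with the excess in replicates 1 and 2 and 9.73% with the excess in replicates 3 and 4. Of the 12 genes, 8 were called with the excess in replicates 1 and 2, 1 (GASA5) with the excess in replicates 3 and 4, and 3 (LBD1, RAP2-3 and UPI) were not called. The rule had not used the pairs, but a gene that is very high in 1 pair passes a limit on group means more easily. The p-values of this test measure the spread between libraries within a pair. They do not measure how far growth periods differ in general, since there were only 2 pairs.

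LHY (AT1G01060, chromosome 1, 33365 to 37871, minus strand), the dawn factor of the clock, was measured by 9, 26, 40 and 35 reads in Control replicates 1 to 4. At 24 h the reads of replicates 1 to 4 were 1640, 1312, 32 and 21 with W, 1099, 978, 17 and 8 with Pb OS, and 1207, 922, 22 and 9 with Sl OS. The 3 h libraries held 11 to 46 reads. Replicates 1 and 2 were thus high with every treatment at 24 h, and replicates 3 and 4 overlapped Control or lay under it. The mean of the 6 libraries of replicates 1 and 2 at 24 h was 45.3 CPM against 0.728 CPM in their Controls (62.3-fold), and in replicates 3 and 4 it was 0.584 against 1.47 CPM. The difference between the pairs at 24 h exceeded that in the other libraries by 7.33 on the log2 scale (SE 0.37, limma adjusted p = 2.87e-12).

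ASG4 (chromosome 1, 190408 to 192436, plus strand) encodes a Myb-like protein of the same family as LHY and CCA1. Its reads in Control were 2, 3, 18 and 11, and at 24 h they were 171, 627, 8 and 4 with W, 145, 540, 3 and 5 with Pb OS, and 204, 587, 3 and 3 with Sl OS. All 6 high libraries were again of replicates 1 and 2, where the mean was 14.4 CPM against 0.103 CPM in their 2 Controls, a ratio that rests on 5 Control reads. In replicates 3 and 4 the 24 h mean was 0.141 CPM against 0.573 CPM. The pair difference at 24 h exceeded the rest by 8.10 (SE 0.63, limma adjusted p = 2.53e-09), the widest of the 12 genes.

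BBX32 (AT3G21150, chromosome 3, 7412445 to 7413727, minus strand), a B-box protein that acts in light signalling, had 4, 32, 14 and 30 reads in Control. At 24 h it had 477, 1023, 9 and 16 reads with W, 341, 820, 12 and 3 with Pb OS, and 299, 419, 16 and 8 with Sl OS. The 3 h libraries were uneven, from 0 to 95 reads, and the 6 high libraries stood above all of them. BBX32 differed between the pairs by 6.93 (SE 1.03, limma adjusted p = 1.86e-05). Its upstream stretch overlaps the neighbouring gene AT3G21160.

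BAM9 (AT5G18670, chromosome 5, 6225956 to 6228195, plus strand) encodes a beta-amylase without catalytic activity that promotes the breakdown of leaf starch. Its reads in Control, 66, 75, 93 and 79, were close to those at 3 h, 68 to 152. At 24 h they were 900, 2636, 56 and 86 with W, 636, 2234, 99 and 137 with Pb OS, and 722, 2184, 98 and 195 with Sl OS. Replicates 1 and 2 averaged 59.2 CPM against 2.90 CPM in their Controls (20.4-fold), and replicates 3 and 4 averaged 3.72 against 3.37 CPM, within the range of Control and 3 h libraries in part. The pair difference was 3.93 (SE 0.49, limma adjusted p = 2.42e-06).

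GATA22 (AT4G26150, chromosome 4, 13253084 to 13255106, plus strand), a GATA factor induced by cytokinin that promotes chloroplast development, had 12, 44, 28 and 14 reads in Control. The 24 h reads were 145, 500, 36 and 63 with W, 464, 884, 29 and 49 with Pb OS, and 658, 1345, 47 and 59 with Sl OS. In replicates 1 and 2 the mean was 21.4-fold that of Control, which was 1.17 CPM. In replicates 3 and 4 it was 1.55 against 0.835 CPM, and the 24 h libraries of that pair, 0.999 to 2.09 CPM, overlapped its Control and 3 h libraries, 0.325 to 1.73 CPM. The pair difference was 3.73 (SE 0.56, limma adjusted p = 2.23e-05).

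AT5G42760 (chromosome 5, 17148808 to 17150451, plus strand), annotated as a leucine carboxyl methyltransferase, and AT2G27420 (chromosome 2, 11726134 to 11727654, minus strand), annotated as a cysteine proteinase, followed the same course. AT5G42760 had 22, 46, 76 and 40 reads in Control and 468, 887, 104 and 77 with W, 446, 794, 42 and 50 with Pb OS, and 464, 682, 93 and 56 with Sl OS at 24 h. AT2G27420 had 11, 27, 61 and 29 reads in Control and 458, 1474, 37 and 32 with W, 597, 1082, 9 and 14 with Pb OS, and 562, 1052, 20 and 20 with Sl OS at 24 h. In both genes replicates 1 and 2 were high and apart from their Controls, at 16.8-fold and 41.9-fold of them, whereas replicates 3 and 4 were at 0.987 and 0.396 times their Controls. The pair differences were 3.53 (SE 0.52, limma adjusted p = 1.57e-05) for AT5G42760 and 5.36 (SE 0.76, limma adjusted p = 1.06e-05) for AT2G27420.

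The deposited values of these 7 genes carry a large batch shift. The shift that the authors' correction took between the pairs was 2.30 for LHY, 1.78 for ASG4, 2.06 for BBX32, 1.76 for BAM9, 1.85 for GATA22, 1.43 for AT5G42760 and 2.51 for AT2G27420 on the log2 scale, against a median size of 0.187 over all genes. As a result the deposited log2 values of LHY in Control were -2.50, -0.97, 1.90 and 1.55 although its reads were few in all 4 libraries. Group means of LHY at 24 h were 2.81 with W (SD 2.20), 2.04 with Pb OS (SD 2.40) and 2.13 with Sl OS (SD 2.38), with n = 4 in each. They exceeded Control by 2.82, 2.04 and 2.14, so the SD was larger than the difference with Pb OS and Sl OS and smaller with W. Applied to values with no batch correction, the rule gave the same 12 genes. Every group but W at 3 h held equal numbers of libraries from both pairs, so only the W difference at 3 h could change.

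Clock genes moved with the replicate pairs in the same libraries. Of 18 morning genes of the clock and its output other than LHY, 16 were called with the excess in replicates 1 and 2 at 24 h and 1 (RVE2) with the excess in replicates 3 and 4. All 12 evening genes were called with the excess in replicates 3 and 4. CCA1, the partner of LHY, was at 144 to 247 CPM in the 24 h libraries of replicates 1 and 2 and at 2.11 to 4.54 CPM in those of replicates 3 and 4, a pair difference of 7.94 (SE 0.28, limma adjusted p = 1.86e-14). COL2, a CONSTANS-like gene, differed by 8.46 (SE 0.41, limma adjusted p = 2.17e-12) and RVE8, a Myb-like activator of evening genes, by 6.95 (SE 0.40, limma adjusted p = 2.11e-11). In the other direction, FKF1, a blue light receptor of the evening, was at 0 to 0.225 CPM in replicates 1 and 2 at 24 h and at 121 to 164 CPM in replicates 3 and 4 (-11.30, SE 0.43, limma adjusted p = 4.24e-14). The RNA-binding protein GRP7 was at 6.13 to 10.95 CPM against 2501 to 3048 CPM. PRR7 alone among the 30 list genes was not called (0.25, SE 0.12, limma adjusted p = 0.0966).

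**Figure D2:**
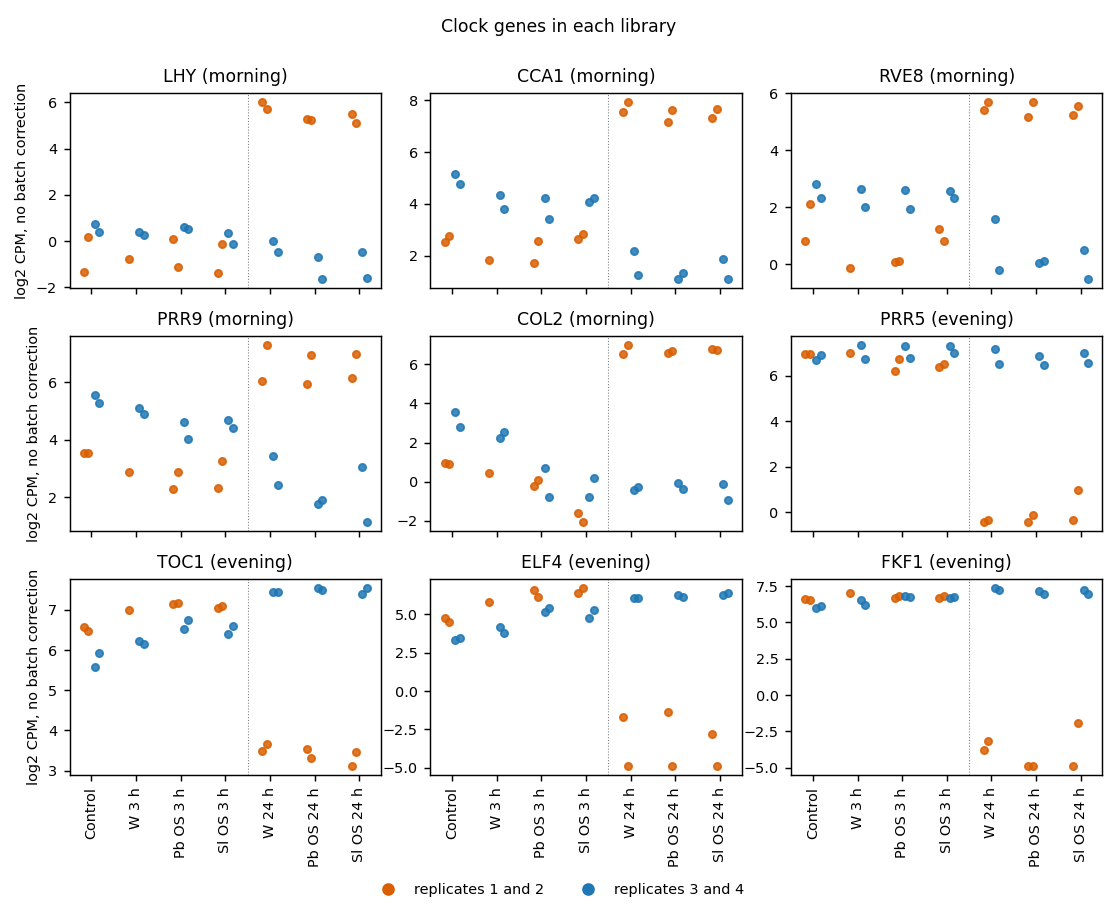
Log2 CPM without batch correction of 9 clock genes in each library, by group, with replicates 1 and 2 in orange and replicates 3 and 4 in blue; each point is a library. At 24 h the orange points of the morning genes LHY, CCA1, RVE8, PRR9 and COL2 are high and those of the evening genes PRR5, TOC1, ELF4 and FKF1 are low, while the blue points lie the other way or near their 3 h level.

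At 3 h and in Control the pairs also stood apart in some clock genes. CCA1 ran from 3.29 to 7.16 CPM in replicates 1 and 2 and from 10.7 to 35.4 CPM in replicates 3 and 4. PRR9, a morning repressor, ran from 4.87 to 11.6 CPM and from 16.4 to 47.7 CPM. PRR5 overlapped, with 74.3 to 130 CPM and 103 to 164 CPM. Tested over both pairs together against Control, no gene of the morning or evening list was called with W, Pb OS or Sl OS at 24 h (limma). That fit averages the pairs and leaves their difference at 24 h in the error, so it cannot show a change within a pair. FKF1 at 24 h was at most 0.225 CPM in replicates 1 and 2, against 95.3 CPM in their Controls. In replicates 3 and 4 it was at 121 to 164 CPM against 66.1 CPM. At 3 h, CAT3, a catalase with an evening peak, fell with Pb OS (-1.49, limma adjusted p = 0.0208) and Sl OS (-1.79, limma adjusted p = 0.00660), RVE2 rose with Pb OS (2.75, limma adjusted p = 0.000548) and Sl OS (3.19, limma adjusted p = 0.000118), and no clock gene was called with W. Mesophyll markers moved with the pairs as well, with 4 of 5 called in excess in replicates 1 and 2 at 24 h (1.18 to 2.25). The pair difference was not particular to the clock lists. Monolignol synthesis, which makes the units of lignin, had 14 of 14 genes called with the excess in replicates 1 and 2 (1.04 to 3.47), the flavonoid list 5 of 10 and the senescence list 3 of 5. The cutin and wax list had 8 of 21 called that way and 2 the other way, the jasmonate list 8 and 2 of 19, suberin synthesis 2 and 2 of 12, and wound regeneration 2 and 0 of 19. The dark and sugar starvation list had 1 and 3 of 8, with differences from -7.54 to 2.55. Of all genes, 8.91% were called with the excess in replicates 1 and 2 and 9.73% the other way, and wound regeneration was near these shares. Replicate pair, growth period and hour of harvest cannot be told apart in this design, and with no unwounded leaf at 24 h neither can wounding and time in either pair.

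**Figure D3:**
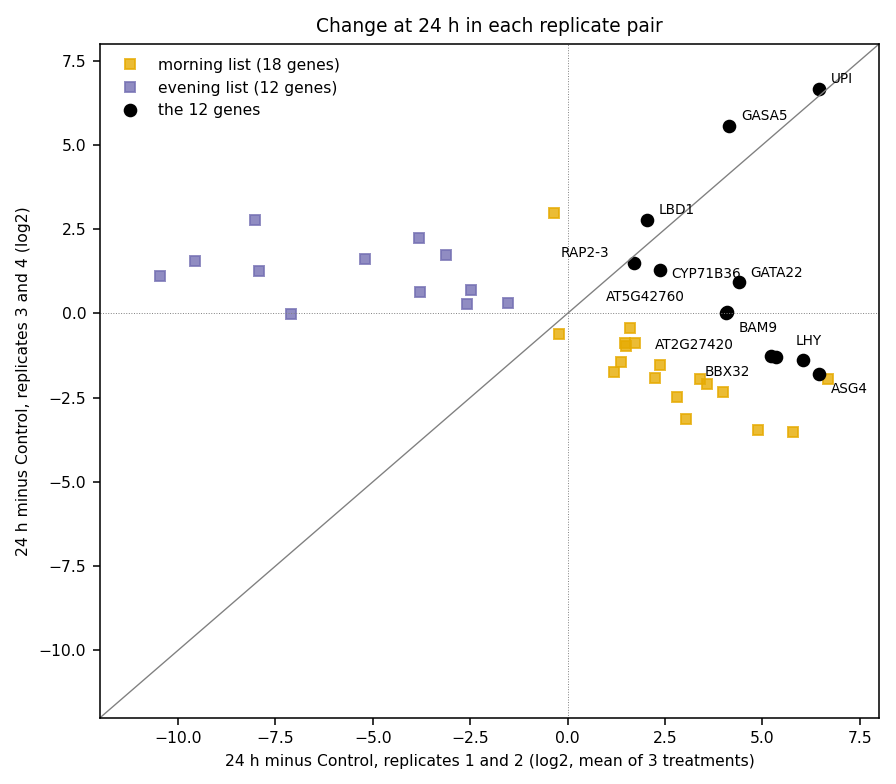
Difference of the 24 h libraries from Control in replicates 1 and 2 (horizontal) and in replicates 3 and 4 (vertical), each as the mean over W, Pb OS and Sl OS in log2 CPM without batch correction, for the 12 genes (black), 18 morning genes (yellow) and 12 evening genes (purple); the grey line marks equal change. UPI, GASA5, LBD1, RAP2-3 and CYP71B36 lie above 0 on both axes, with GASA5 above the line and CYP71B36 under it. GATA22 is also above 0 on both, at 0.92 in replicates 3 and 4, where BAM9 and AT5G42760 are at 0.03. LHY, ASG4, BBX32 and AT2G27420 lie low on the right among the morning genes, at -1.27 to -1.79 in replicates 3 and 4.

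The other 5 genes were higher than Control at 24 h in both pairs. UPI (AT5G43580, chromosome 5, 17507801 to 17508752, minus strand), a serine protease inhibitor of the potato inhibitor I family whose loss makes Arabidopsis more susceptible to necrotrophic fungi and chewing larvae, had no read in any of the 4 Control libraries and 1 read in total over the 11 libraries at 3 h. At 24 h it had 23, 18, 36 and 38 reads with W, 141, 81, 140 and 140 with Pb OS, and 222, 242, 251 and 207 with Sl OS. The 3 groups did not overlap, and no difference between the pairs was called (pair difference -0.33, SE 0.20, limma adjusted p = 0.222). Its mean level was 0.991 CPM ± 0.235 with W, 4.45 CPM ± 0.922 with Pb OS and 7.99 CPM ± 0.946 with Sl OS (SD, n = 4). Against 3 reads in a Control library, the most that a count of 0 allows per library, these means were at least 7.83-fold, 35.2-fold and 63.1-fold higher, by counting error only.

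GASA5 (AT3G02885, chromosome 3, 637921 to 639242, minus strand), a small cysteine-rich peptide of the gibberellin-regulated GASA family, had no read in Control or in any 3 h library but 1, Sl OS replicate 2, with 3 reads. At 24 h it had 70, 63, 246 and 132 reads with W, 28, 12, 58 and 30 with Pb OS, and 1, 5, 15 and 15 with Sl OS. The order was the reverse of that of UPI, with every W library above every library of both secretions, while Pb OS and Sl OS overlapped. The mean level was 4.26 CPM ± 2.25 with W, 1.13 CPM ± 0.642 with Pb OS and 0.296 CPM ± 0.221 with Sl OS (SD, n = 4), which against 3 reads per Control library were at least 33.6-fold, 8.89-fold and 2.34-fold higher. With Sl OS at 24 h, 1 and 5 reads in replicates 1 and 2 were near that floor. GASA5 was higher in replicates 3 and 4 than in 1 and 2 at 24 h (-1.65, SE 0.41, limma adjusted p = 0.00306), a call that was lost with voom, on the log2(CPM + 5) scale and with only Control and the 24 h groups in the fit.

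RAP2-3 (AT3G16770, chromosome 3, 5705541 to 5707084, plus strand) encodes a group VII ethylene response factor, a class whose stability is set by oxygen. It was the most abundant of the 12 in CPM, with 539, 545, 428 and 1010 reads in Control and 321 to 1037 reads at 3 h. At 24 h it had 2315, 1506, 2833 and 1535 reads with W, 2333, 1682, 2682 and 1476 with Pb OS, and 1593, 2414, 3626 and 1817 with Sl OS. Every 24 h library, from 50.9 to 112 CPM, was above every other library, from 10.3 to 39.8 CPM. The mean at 24 h was 3.35-fold that of Control in replicates 1 and 2 and 2.76-fold in replicates 3 and 4, and no difference between the pairs was called (-0.16, 95% interval -0.97 to 0.64, limma adjusted p = 0.776).

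CYP71B36 (AT3G26320, chromosome 3, 9644319 to 9646093, minus strand), a cytochrome P450, had 87, 66, 48 and 57 reads in Control. At 24 h it had 388, 410, 110 and 193 reads with W, 457, 395, 164 and 190 with Pb OS, and 433, 488, 114 and 170 with Sl OS. Both pairs were above their own Control, at 5.17-fold in replicates 1 and 2 and 2.56-fold in replicates 3 and 4, and the first exceeded the second (1.67, SE 0.30, limma adjusted p = 0.000183), a call lost on the log2(CPM + 5) scale. LBD1 (AT1G07900, chromosome 1, 2442570 to 2443746, plus strand), a transcription factor of the LOB domain family, had 10, 64, 8 and 10 reads in Control and at 24 h 117, 277, 202 and 121 with W, 98, 164, 58 and 65 with Pb OS, and 77, 68, 80 and 33 with Sl OS. LBD1 was scattered before 24 h, from 0 to 59 reads at 3 h, and Control replicate 2 overlapped the 24 h libraries. Within replicates 3 and 4, LBD1 already stood 1.67 above Control with Pb OS at 3 h, with 59 and 23 reads against 8 and 10. Its pair difference was 1.67 with a wide error (SE 1.04, limma adjusted p = 0.223).

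The secretions could be compared with W at the same time, which the rule had not used. At 24 h UPI was higher than with W by 2.13 with Pb OS (SE 0.19, limma adjusted p = 9.68e-06) and by 2.99 with Sl OS (SE 0.19, limma adjusted p = 3.03e-08). GASA5 was lower than with W by -3.94 with Sl OS (SE 0.50, limma adjusted p = 0.000585), and with Pb OS the estimate was -1.92 (SE 0.50, limma adjusted p = 0.308). These were the only calls of the main fit, 1 of 12 with Pb OS and 2 of 12 with Sl OS, beside 0.0582% and 0.392% of all genes. GASA5 was also called with Pb OS when the pairs were modelled within each time (2 calls). UPI and GASA5 both average under a log2 value of 0, so neither was tested when genes were limited to a mean of at least 0, and no gene of the 12 was then called.

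**Figure D4:**
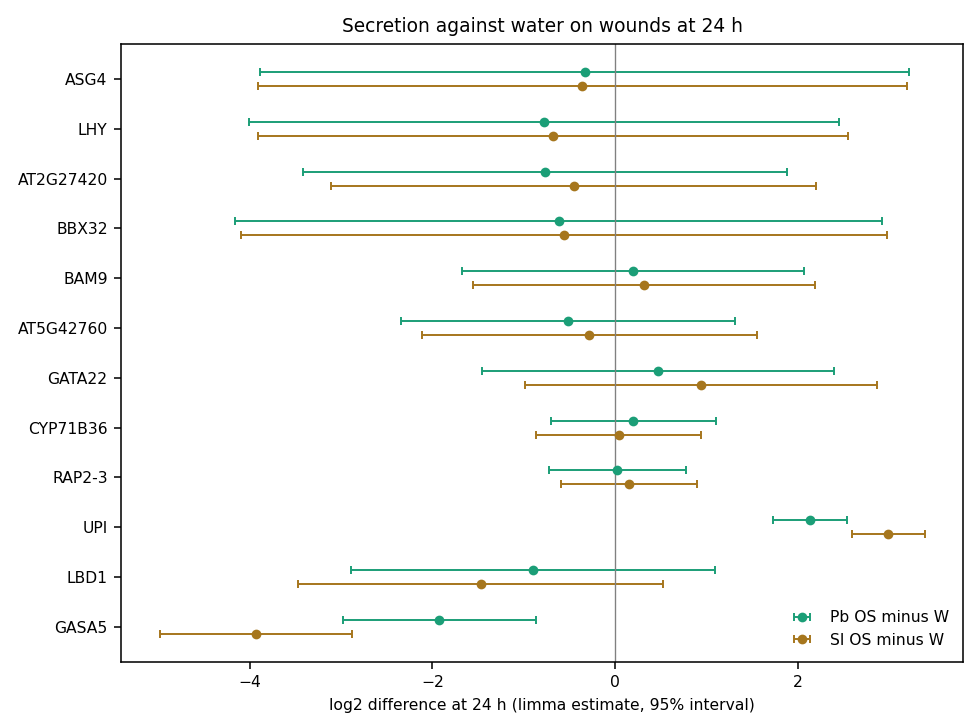
Log2 difference of Pb OS (green) and Sl OS (brown) from W at 24 h for each of the 12 genes, as limma estimates on the deposited values with 95% intervals (n = 4 libraries per group). UPI lies to the right of 0 with both secretions and GASA5 to the left, from 2.99 to -3.94, and the intervals of the other genes include 0.

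None of the genes that depended on the pairs was called between a secretion and W at 24 h, in a fit that leaves the pair difference at 24 h in the error. For LHY the difference from W was -0.78 with Pb OS (95% interval -4.01 to 2.46) and -0.68 with Sl OS (-3.92 to 2.55), intervals too wide to show a change of several-fold either way. Within each of the 4 replicates LHY was higher with W than with either secretion, at 65.2 CPM against 38.3 (Pb OS) and 45.1 CPM (Sl OS) in replicate 1 and at 0.696 against 0.286 and 0.297 CPM in replicate 4. AT5G42760, LBD1 and GASA5 also had W above both secretions in all 4 replicates. These orders were read after the values were seen and were not tested. Libraries of the same number at 24 h also share a replicate pair, and 24 h samples of the same pair correlated at 0.37. Whether the number adds to the pair at 24 h was not tested. With the pairs modelled within each time, neither LHY nor AT5G42760 was called. In GATA22, W was under both secretions in CPM within replicates 1 and 2, between them in replicate 3 and above both in replicate 4. GATA22 gave 0.47 with Pb OS (-1.45 to 2.40) and 0.94 with Sl OS (-0.99 to 2.87). RAP2-3 and CYP71B36 had narrower intervals, -0.72 to 0.77 for RAP2-3 with Pb OS and -0.87 to 0.94 for CYP71B36 with Sl OS.

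Between the secretions, no gene of the 12 was called by limma at 24 h or 3 h (0% of all genes), with 2 at an unadjusted p under 0.05 at 24 h and 0 at 3 h, and voom on the reads called 0 at both times. The pair under 0.05 was UPI, where Pb OS stood lower than Sl OS by -0.86 (95% interval -1.26 to -0.46, limma adjusted p = 0.825), and GASA5, where it stood higher by 2.01 (0.96 to 3.06, limma adjusted p = 1). UPI was called between the secretions on the log2(CPM + 5) scale. From 3 h to 24 h the difference from W changed in 1 of the 12 genes with Pb OS (UPI) and in 2 with Sl OS (UPI and GASA5), beside 5.61% and 14% of all genes. For 12 genes these counts are near those shares, and voom called 0 with Pb OS. The rule had limited the 3 h values, and both genes had almost no reads at 3 h. These calls therefore largely repeat the differences at 24 h. The reads of UPI with Pb OS, 81 to 141, did not overlap those with Sl OS, 207 to 251.

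At 3 h, where all 12 genes were by the rule not raised, CYP71B36 was lower than with W by -1.41 with Pb OS (SE 0.47, limma adjusted p = 0.0361) and by -1.38 with Sl OS (SE 0.47, limma adjusted p = 0.0323). It had 41, 78 and 55 reads with W, 36, 25, 20 and 21 with Pb OS, and 20, 25, 29 and 38 with Sl OS. AT2G27420 was lower with Sl OS by -3.90 (SE 1.38, limma adjusted p = 0.0378), with 19, 33 and 15 reads with W and 2, 0, 0 and 5 with Sl OS. In each of these comparisons every W library held more reads than every OS library. The 1 and 2 of 12 genes called stand beside 24.8% of all genes called in either direction with Pb OS and 32.0% with Sl OS. The rule had removed genes raised at 3 h, so the number and direction of these calls were partly set by it. The counts are not comparable with the shares. None of the 3 calls held when W replicate 2 or W replicate 3 was left out (adjusted p from 0.124 to 0.179). The call of CYP71B36 with Pb OS was also lost without each of the Pb OS libraries (0.0568 to 0.0672), that with Sl OS without Sl OS replicate 1 (0.111) or 2 (0.132), and that of AT2G27420 without Sl OS replicate 1 (0.0708), 2 (0.170) or 3 (0.0572). No call held with voom or on the log2(CPM + 5) scale. With the pairs modelled within each time, 3 genes were called with Pb OS, AT2G27420 and CYP71B36 lower and GATA22 higher. In that fit 3 were called lower with Sl OS, AT2G27420, CYP71B36 and AT5G42760. Without Pb OS replicate 2 at 3 h, LBD1 was called higher with Pb OS.

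UPI has a neighbour of the same family. AT5G43570, at 17506400 to 17507641 on the plus strand of chromosome 5 and 159 bases from UPI, was just outside the rule, with a largest 3 h difference of 0.55. It had 1 read in 4 Control libraries, 18, 15, 16 and 24 reads with W at 24 h, 23, 24, 33 and 28 with Pb OS, and 52, 36, 48 and 45 with Sl OS. The order of the treatments was that of UPI, at a lower level. Related sequences of such neighbours can share reads, and the study's methods do not state how reads matching both genes were treated in counting.

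Values near the limits were close together. Just inside the 24 h limit, by their smallest 24 h difference, were RAP2-3 (1.55), AT2G27420 (1.67) and LBD1 (1.73), and just outside it AT3G19550 (1.49), AT5G53048 (1.42) and AT2G44380 (1.41). Just inside the 3 h limit, by their largest 3 h difference, were GATA22 (0.47), GASA5 (0.45) and LHY (0.34), and just outside it AT4G03540 (0.51), AT5G43570 (0.55) and LAC12 (0.57). Leaving out 1 library at a time gave 6 to 14 genes, of which 4 to 12 were among these 12. Control replicate 3 mattered most: without it 6 genes met the rule, of which 4 were among the 12. Without Control replicate 1 the rule gave 7 genes, 5 of them among the 12. Without Pb OS replicate 2 at 24 h it gave 7, with 6 among the 12. CYP71B36 and UPI met the rule without any single library, and BBX32 lost it without 9 of the 27. Run on each pair alone, the rule gave 146 genes in replicates 1 and 2, of which 8 were among the 12, and 12 genes in replicates 3 and 4, of which GASA5 and UPI were among them. UPI was the 1 gene that both pairs gave.

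Of 22 gene lists covering the clock, wound healing, cell walls, defence hormones, the cell cycle and cell types, LHY was the 1 member of any. Of the 217 other list genes in the table, 21 were called higher than Control with W at 24 h, 14 with Pb OS and 15 with Sl OS, and 0, 1 and 0 lower, beside 1.39%, 1.58% and 2.26% of all genes called higher. In either direction these were 21, 15 and 15 genes, against 40, 35 and 33 with the pairs modelled within each time, and the 15 with Pb OS became 9 without Control replicate 3. Called lower were 0.159%, 0.212% and 0.487% of all genes. At 3 h the list genes called were 25 higher and 1 lower with W (3.5% and 0.323% of all genes), 58 and 40 with Pb OS (13.4% and 14.5%) and 70 and 43 with Sl OS (14.5% and 16.2%). For 12 of the 22 lists there was no call at 24 h. Wound regeneration regulators, transcription factors and wall enzymes active when cut tissue reunites, had the most, with 9, 7 and 7 of 19 higher. Their largest changes with W were ERF114 (6.20), ERF113 (5.56), XTH20 (4.18) and ERF115 (3.85), with Pb OS ERF113 (6.26), XTH20 (4.67), ERF108 (4.19) and ERF115 (3.92), and with Sl OS ERF113 (6.53), XTH20 (4.75), PLT7 (4.51) and ERF108 (3.75). Suberin synthesis and transport had 7 of 12 higher with W, led by ABCG16 (5.25), LTPG15 (4.95), FAR5 (4.95) and ASFT (4.73), 1 with Pb OS and 0 with Sl OS. Of the jasmonate list 1, 4 and 3 of 19 were higher, with JAZ10 (4.35), JAZ8 (2.93), JAZ5 (2.20) and AOC3 (2.11) with Pb OS and JAZ10 (3.91), JAZ8 (2.73) and JAZ5 (1.67) with Sl OS.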

How the data were processed

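RNA-seq values were analysed for 27 leaf libraries in 7 groups. The deposited values are log2 CPM per gene: the authors trimmed with cutadapt 2.5, aligned with STAR 2.5.3a to TAIR10, counted with HTSeq 0.9.1, kept genes that reached 1 CPM in any sample, and computed log2 values after TMM scaling, with a prior count of 1 (edgeR), excluded 1 W sample as an outlier and removed batch effects with limma, by replicate number as the methods state, although the values balance by replicate pair. A second deposited table holds the authors' own log2 fold changes with adjusted p-values and was not used.

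Whole reads were recovered by undoing the prior count and 1 shift per gene between replicate pairs, within 0.02 reads, for 18899 of 18899 genes, which was checked on simulated reads. Differences were tested with limma 3.58.1 in R 4.3.3 on the deposited values of all 27 samples, with 7 group means and the replicate number as a block of 4 levels, as the study's methods do, and Benjamini-Hochberg adjustment over all genes within a comparison. The block followed the labels, so the W library at 3 h labelled replicate 2 shared a block with replicate 2 although the values place it with replicates 3 and 4. Against Control a call also needed a log2 change over 1 in size. The fits were tested on simulated data. After removing group means, samples of the same replicate number correlated at -0.05, -0.01, -0.10 and -0.06 over both times together. The deposited values balance between the pairs, so deviations at 24 h and in the other libraries offset each other, which keeps these values low. They do not show whether samples of the same number were close within a time. The 24 h samples of the same pair correlated at 0.37. The value for different pairs, -0.37, mirrors it because group means were removed.

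The genes and lists were chosen with earlier results of these data known. Named were all members, the 3 genes nearest outside each limit, the clock genes called against Control and, for other lists with 3 or more called genes at 24 h, the 4 with the largest change; further clock genes illustrate the pair test and were chosen after their values were seen. The pair test, the comparison of 24 h with 3 h differences and the 1000-base window were added after the data had been seen. Sequences come from the RefSeq genome TAIR10.1, by AGI code. P-values between treatments measure the spread between replicates of the same procedure. Those of the pair test measure the spread between libraries within a pair. With only 2 pairs they do not cover the spread between growth periods. Floors cover counting error only. Alternatives left out the block, used 2 batches overall or within each time, one time only, log2(CPM + 5), a level filter, a trend with robust eBayes, voom on the reads, and each library in turn.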

Additional observations from a re-analysis of the deposited data

Results flagged for a closer look

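Among 72 combinations of a gene of the 12 and a group of 4 libraries, 3 held a library far from the other 3 by Dixon's test at the 95% level, and chance flags about 1 in 20 such groups. LBD1 stood at a deposited log2 value of 1.45 in Control replicate 2, with 64 reads, and the next Control library at -1.20. LBD1 also stood at 0.16 in Sl OS replicate 4 at 24 h, with 33 reads, below the next at 1.33. GASA5 stood at -2.88 in Sl OS replicate 2 at 3 h, with 3 reads, and the next library, with 0 reads, at -4.68.

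The difference between a secretion and W changed from 3 h to 24 h in 3 cases, by an interaction in the limma fit, beside 5.61% of all genes with Pb OS and 14% with Sl OS. UPI rose by 1.97 more with Pb OS (SE 0.28, limma adjusted p = 0.00316) and by 3.06 more with Sl OS (SE 0.28, limma adjusted p = 3.23e-05) relative to W at 24 h than at 3 h. GASA5 changed by -4.45 with Sl OS (SE 0.75, limma adjusted p = 0.00326). UPI and GASA5 had almost no reads at 3 h, so these values largely repeat their differences at 24 h.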

How the results depend on the processing

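No call between treatments and no call of the 24 h minus 3 h comparison changed in number without the replicate block. The rule gave 2 genes on the log2(CPM + 5) scale, none of them among the 12, 39 with a 24 h limit of 1, and 146 within replicates 1 and 2; without 1 library it gave 6 to 14. With the replicate block of 2 batches within each time, members called were 2 for Pb OS against W at 24 h and 3 for it at 3 h, and list genes called against Control at 24 h were 40 with W, 35 with Pb OS and 33 with Sl OS, against 21, 15 and 15 in the main fit, and the comparison of 24 h with 3 h gave 3 with Pb OS and 4 with Sl OS. On the log2(CPM + 5) scale 2 were called for Pb OS and 3 for Sl OS against W at 24 h, with LBD1 the added gene for Sl OS. On that scale 1 was called for Pb OS against Sl OS at 24 h and 0 for either secretion against W at 3 h. The 24 h with 3 h comparison gave 2 with Pb OS and 3 with Sl OS there, again with LBD1 among the latter. With genes limited to a mean of at least 0, 0 were called for either secretion against W at 24 h, because UPI and GASA5 were then not tested. Voom gave 0 for either secretion against W at 3 h and 0 for the 24 h with 3 h comparison of Pb OS. Without 1 library each, calls at 3 h were 0 to 1 with Pb OS and 0 to 2 with Sl OS, list genes with Pb OS at 24 h 9 to 19 (9 without Control replicate 3), and the 24 h with 3 h comparison of Pb OS 1 to 2. Other causes were not tested. The pair test called 9 members without any single library and 7 to 9 under its other settings, losing GASA5 in 3 of them and CYP71B36 in 1. Against W at 24 h, UPI with both secretions and GASA5 with Sl OS kept direction and call wherever they were tested. Depth limits GASA5 with Sl OS at 24 h, with as few as 1 read, and both genes in Control.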
